A study of Homo sapiens with 8 samples.

Results

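The 5 suprabasal keratin genes KRT1, KRT10, KRT2, KRT77 and KRT78 were described, out of 24252 genes listed in each library. Each was found by its symbol, and each symbol occurred once. RNA was sequenced from HaCaT cells, a spontaneously immortalised line of human skin keratinocytes. Among 8 libraries, the 4 OGD-R libraries came from cells put through oxygen and glucose deprivation with later restoration (OGD/R) and sampled in an early stage, with neither duration given in the labels. The 4 Control libraries carry no treatment in their labels. The labels do not say whether libraries of a group came from separate cultures, so p-values reflect only how far these libraries differ among themselves, possibly for technical reasons.

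Keratins are the intermediate filament proteins of epithelial cells, and each filament is built from pairs of an acidic type I and a basic type II keratin. Basal keratinocytes make KRT5 with KRT14. As cells leave the basal layer of the epidermis they switch to KRT1, a type II keratin, paired with KRT10, its type I partner, and these filaments attach to desmosomes. KRT2 is a type II keratin of the upper spinous and granular layers. KRT77 is a type II keratin close in sequence to KRT1, known in human skin from sweat gland ducts, and KRT78 is a further type II keratin. Mutations of KRT1 and KRT10 cause epidermolytic ichthyosis, in which suprabasal cells rupture.

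KRT1, KRT2, KRT77 and KRT78 lie in the type II keratin cluster on chromosome 12 and KRT10 lies in the type I cluster on chromosome 17, all on the minus strand (GRCh38, GENCODE 29). KRT2 (ENSG00000172867) spans 52644558 to 52652164. KRT1 (ENSG00000167768) spans 52674736 to 52680407 and KRT77 (ENSG00000189182) 52689626 to 52703463, so these 3 genes are neighbours. KRT78 (ENSG00000170423) lies apart, at 52837804 to 52849092. KRT10 (ENSG00000186395) spans 40818117 to 40822595 on chromosome 17.

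The type II members are related copies, so the coding sequences were compared to see whether short reads could be shared among them. The longest identical stretches are shown, read 5′ to 3′ from GENCODE 29 transcripts.
KRT1 and KRT2, 26 bases: aatttgcctccttcattgacaaggtg
KRT1 and KRT77, 25 bases: caagtatgaggatgaaatcaacaag
KRT2 and KRT78, 32 bases: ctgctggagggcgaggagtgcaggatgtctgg
No other pair of these 4 genes shared a longer run than 26 bases. Of 2402 windows of 50 bases in the KRT1 transcript, 0 occurred in a transcript of another gene. The same count was 0 of 2354 windows for KRT2 and 0 of 1729 for KRT78. For KRT10 it was 9 of 2075 windows, all shared with TMEM99, which overlaps KRT10 on the opposite strand from 40819106 to 40836274. KRT77 shared 6 of 3256 windows, all with the antisense gene AC055716.3. TMEM99 itself was at 9.18 to 10.6 FPKM in OGD-R and at 6.08 to 15.05 FPKM in Control, and whether counting used strand is not given.

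RefSeq promoter windows (GRCh38.p14, 250 bases before to 50 after the start site) were available for 2 of the 5 genes, KRT10, the most abundant member by mean, and KRT2, the least abundant. They are shown to set the letters near the start of the highest and the lowest member side by side. The KRT10 window is chr17:40822565-40822864 and the KRT2 window chr12:52652162-52652461, both on the minus strand. Capitals mark matches to TATAA, the core of a TATA box, and to TTNCNNAA, a C/EBP-type motif.
KRT10: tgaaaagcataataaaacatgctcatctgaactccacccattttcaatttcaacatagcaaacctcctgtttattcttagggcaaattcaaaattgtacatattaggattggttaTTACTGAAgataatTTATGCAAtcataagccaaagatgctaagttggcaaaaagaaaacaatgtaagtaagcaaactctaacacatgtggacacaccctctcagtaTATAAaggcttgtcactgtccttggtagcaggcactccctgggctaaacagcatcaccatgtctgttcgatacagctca
KRT2: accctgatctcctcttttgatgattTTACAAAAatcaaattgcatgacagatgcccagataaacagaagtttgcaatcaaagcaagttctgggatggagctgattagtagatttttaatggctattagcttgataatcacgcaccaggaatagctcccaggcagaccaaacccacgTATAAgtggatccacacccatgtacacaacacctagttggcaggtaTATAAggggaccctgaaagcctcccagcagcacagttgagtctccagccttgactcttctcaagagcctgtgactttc
Counted from the start site, both windows held TATAA just before it, from -29 to -25 in KRT10 and from -28 to -24 in KRT2, and KRT2 held a further match from -74 to -70. KRT10 held 2 matches to TTNCNNAA, 1 on each strand, and KRT2 held 1. On either strand, TATAA occurred in 20.4% and TTNCNNAA in 36.8% of 35116 promoter windows. The AP-1 motif TGANTCA (7.71% of windows) and the AP-2 motif GCCNNNGGC (23.2%) were not among the letters of either window. No marked motifs overlapped.

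Values are taken to be FPKM, fragment counts scaled to transcript length and library depth, so levels of different genes can be compared per length. Depths estimated from the spacing of the lowest values, and so only as sure as that reading, ran from 39.1 to 44.5 M fragments in OGD-R and from 33.8 to 49.98 M fragments in Control. The spacing was searched only within a fixed range, so these depths were bounded in advance. The Control libraries fell in 2 places. Over the 11740 genes averaging 1 FPKM or more, log2 values correlated at 0.992 between Control 1 and Control 2, at 0.991 between Control 3 and Control 4, and at 0.874 to 0.881 across these pairs. OGD-R libraries correlated with each other at 0.992 to 0.993, with Controls 1 and 2 at 0.940 to 0.947, and with Controls 3 and 4 at 0.879 to 0.887. Member values are therefore given for every Control, and comparisons also without Controls 1 and 2 or without Controls 3 and 4. All 10 keratinocyte markers, such as KRT5, KRT14 and TP63, averaged at least 1 FPKM. Of 23 markers of other cells, COL1A1 and CD68 did. Summed fibroblast markers lay at 3.82 to 4.99 FPKM in OGD-R and 0.882 to 8.72 FPKM in Control, with COL1A2 at 0 in every library. Summed immune markers lay at 3.06 to 3.801 FPKM in OGD-R and 12.3 to 16.7 FPKM in Control, with TYROBP at 0 in every library. Summed melanocyte and endothelial markers stayed at or below 0.666 FPKM in every library. Their part in the results was not tested.

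KRT1, the type II keratin of the suprabasal pair, was higher in OGD-R than in every Control. Its FPKM was 168, 213, 198 and 144 across OGD-R 1 to 4, against 6.33, 4.64, 31.8 and 29.7 across Controls 1 to 4. The lowest OGD-R library was 4.54 times the highest Control, and the groups did not overlap, as for 15.2% of all genes tested with OGD-R above Control and 14.8% with OGD-R below. The OGD-R mean of 181 ± 30.7 FPKM (SD, n = 4) was 28.6, 39.0, 5.70 and 6.09 times Controls 1 to 4. On the log2(FPKM + 1) scale the fold change was 3.66 ± 0.59 (SE), with a Benjamini-Hochberg adjusted p of 0.00436 by limma. Leaving out Controls 1 and 2 gave 2.50 and leaving out Controls 3 and 4 gave 4.81, so the direction held for either pair of Controls while the size did not. KRT1 and KRT77 were the called members of the 3 tested, both higher, beside 19.9% of all genes tested called in either direction, 10.2% higher (1202 genes) and 9.69% lower (1138 genes). KRT77 passed the filter only through its OGD-R values, so the members called are not read against these shares. Upper-quartile scaling gave 1697 higher and 907 lower. All 3 were called higher when either pair of Controls was left out. Without Controls 1 and 2, 67.6% of all genes were called, 39.2% higher and 28.4% lower. Without Controls 3 and 4, 55.2% were called, 22.8% higher and 32.4% lower. In bulk RNA, more cells with KRT1 and more KRT1 RNA per cell cannot be told apart.

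KRT10, the type I partner, was the most abundant of the 5 genes in every library. Its FPKM was 436, 514, 503 and 415 across OGD-R 1 to 4, against 29.98, 27.6, 285 and 259 across Controls 1 to 4. The groups did not overlap, and Controls 3 and 4 lay nearer to OGD-R than to Controls 1 and 2. The OGD-R mean of 467 ± 48.9 FPKM (SD, n = 4) was 15.6, 16.9, 1.64 and 1.80 times Controls 1 to 4. With all libraries KRT10 did not pass the test (log2 fold change 2.37 ± 0.80 SE, adjusted p = 0.0718 by limma). Leaving out Controls 1 and 2 gave 0.77 ± 0.10 (SE, adjusted p = 0.000106 by limma), and leaving out Controls 3 and 4 gave 3.97 ± 0.09 (SE, adjusted p = 1.28e-08 by limma). It also passed without Control 3 alone or without Control 4 alone (limma adjusted p = 0.0362 and 0.0402). The p-values with a pair left out rest, for Control, on the spread within the kept pair. Among Controls, the SD of log2 KRT10 values was 1.85, larger than for 99.2% of genes tested, against 0.15 among OGD-R libraries. For KRT1 these SDs were 1.34 and 0.25, and over all genes tested the median SD was 0.29 in Control and 0.09 in OGD-R.

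**Figure D1:**
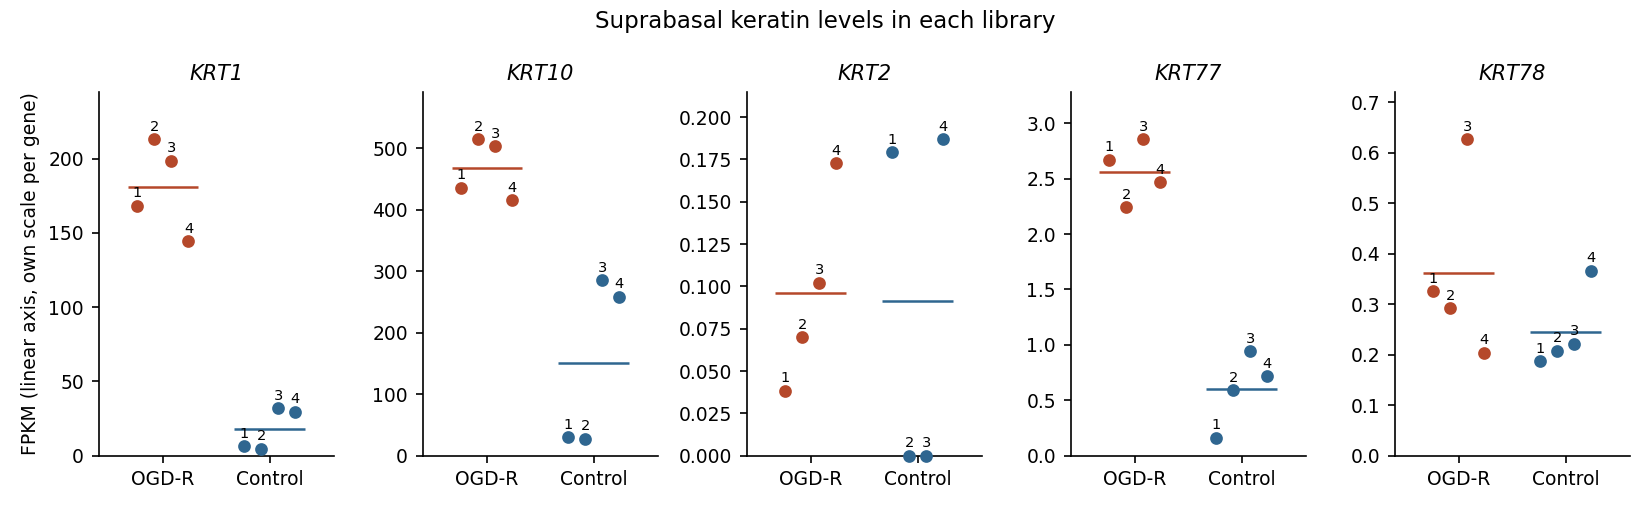
FPKM of each suprabasal keratin in 4 OGD-R libraries (left in each panel) and 4 Control libraries (right), numbered by replicate, on a linear axis of its own for each gene, with lines at group means. KRT1, KRT10 and KRT77 do not overlap between the groups, KRT10 lies at 259 and 285 FPKM in Controls 4 and 3 but at 29.98 and 27.6 FPKM in Controls 1 and 2, and KRT2 and KRT78 stay below 1 FPKM.

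**Figure D2:**
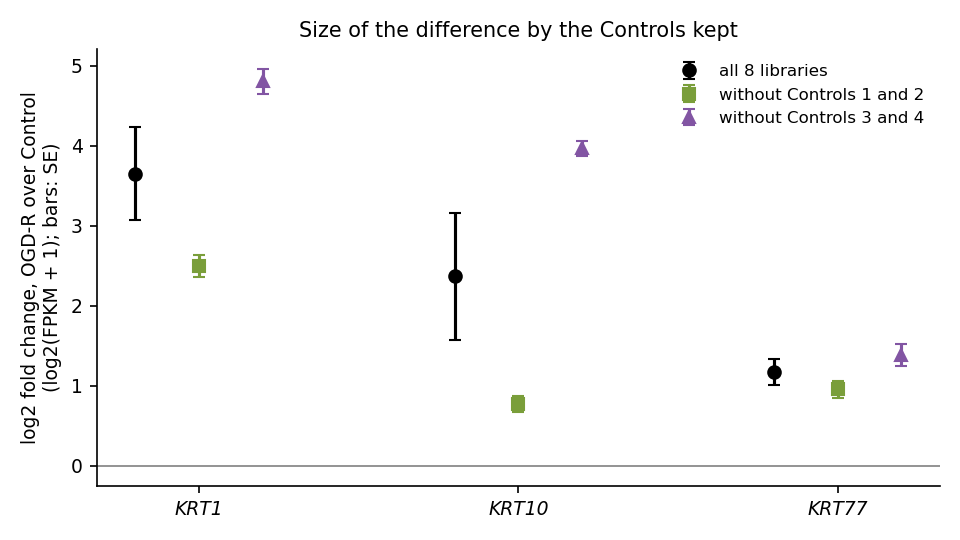
Log2 fold change of OGD-R over Control on the log2(FPKM + 1) scale, with SE from limma, for the 3 tested suprabasal keratins with all 8 libraries, without Controls 1 and 2, and without Controls 3 and 4. All values are above 0, and KRT10 spans the widest range, 0.77 to 3.97.

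The balance of the pair shifted towards KRT1 in OGD-R. The ratio of KRT1 to KRT10, per length, was 0.386, 0.414, 0.395 and 0.348 in OGD-R 1 to 4, against 0.211, 0.168, 0.111 and 0.115 in Controls 1 to 4. KRT10 RNA thus exceeded KRT1 RNA in every library, and the groups did not overlap. The mean ratio was 0.386 ± 0.0279 in OGD-R and 0.151 ± 0.0476 in Control (SD, n = 4 each). On a log2 scale the difference was 1.40, or 2.64-fold (exact two-sided permutation p = 0.0286, the smallest that 4 against 4 libraries allow). A ratio within a library does not depend on its total. Controls 3 and 4, which had more KRT1 and more KRT10 than Controls 1 and 2, had lower ratios than those Controls. Leaving out Controls 1 and 2 gave a log2 difference of 1.77, and leaving out Controls 3 and 4 gave 1.03 (exact permutation p = 0.0667 each, the smallest that 4 OGD-R libraries against 2 Controls allow).

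**Figure D3:**
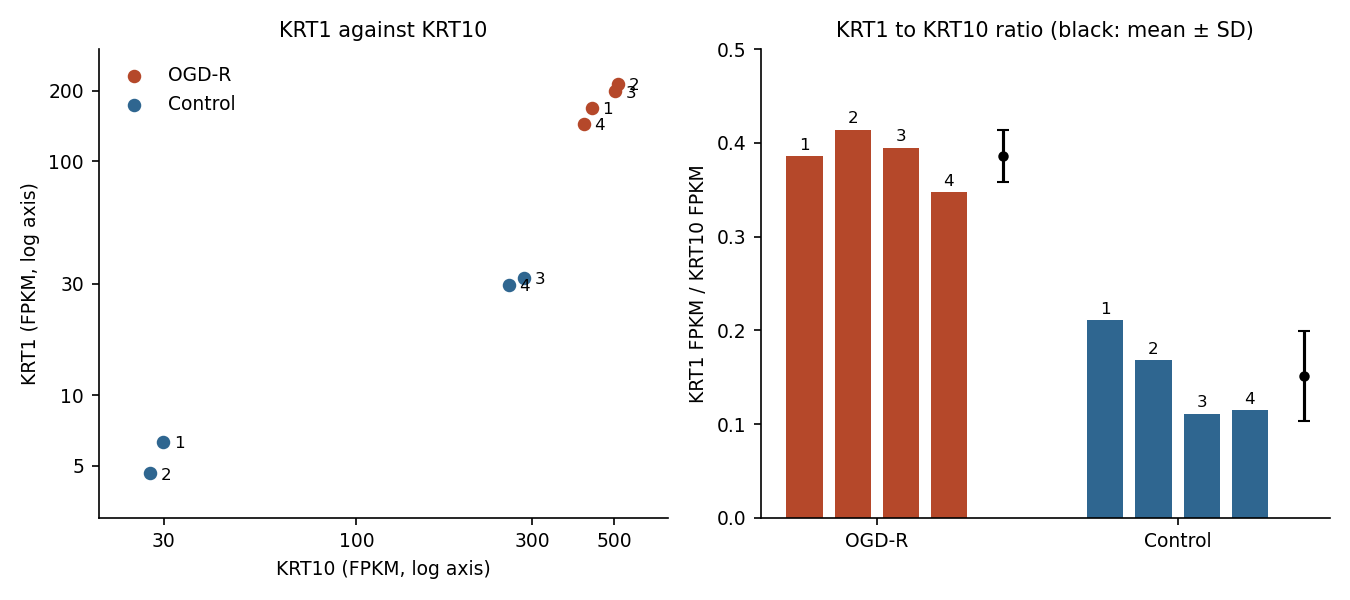
Left, KRT1 against KRT10 in FPKM on log axes, with 1 point per library numbered by replicate. Right, the KRT1 to KRT10 ratio in each library, with the mean and SD of each group in black. The libraries lie in 3 places on the left, and all OGD-R ratios (0.348 to 0.414) lie above all Control ratios (0.111 to 0.211).

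KRT77, the type II neighbour of KRT1, was low but also higher in OGD-R. Its FPKM was 2.67, 2.24, 2.85 and 2.47 across OGD-R 1 to 4, against 0.163, 0.592, 0.942 and 0.718 across Controls 1 to 4. The groups did not overlap, and Control 1 was the lowest. By the spacing of low values, KRT77 rested on about 32.2 fragments in the thinnest library and 484 in the fullest. The fold change was 1.17 ± 0.16 (SE, adjusted p = 0.00221 by limma) on the log2(FPKM + 1) scale, which understates the change of low genes. With a pseudocount of 0.1 in place of 1 it was 2.08. Since its entry to the test was not independent of its difference, it was also fitted with no filter on low values (adjusted p = 0.00387 by limma). Its Control SD on the log2(FPKM + 1) scale, 0.32, was near the median of all genes, but that scale narrows the spread of values below 1 FPKM. In FPKM the highest Control was 5.78 times the lowest, against 6.84 times for KRT1. The log2 fold change of KRT77 was 0.96 with Controls 1 and 2 left out and 1.38 with Controls 3 and 4 left out. KRT77 rose less than KRT1, with a KRT77 to KRT1 ratio of 0.0145 ± 0.00285 in OGD-R and 0.0518 ± 0.0506 in Control (SD, n = 4 each). That log2 ratio differed by -1.46 (exact two-sided permutation p = 0.0286). It was -0.89 without Control 2, and leaving out any 1 OGD-R library gave an exact permutation p of 0.0571 to 0.0857. On leaving out Controls 1 and 2 it was -0.91, and leaving out Controls 3 and 4 gave -2.01.

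KRT2 was near the limit of detection, KRT78 was low, and neither showed a detectable difference. KRT2, of the upper epidermis, had an FPKM of 0.0383, 0.0701, 0.102 and 0.173 across OGD-R 1 to 4, against 0.179, 0, 0 and 0.187 across Controls 1 to 4. The groups overlapped fully, with Controls holding both the highest and the lowest values. By the estimated depths, KRT2 rested on at most 22.6 fragments in a library. On that estimate 3 fragments would be worth 0.0238 to 0.0352 FPKM, the limit that a listed 0 allows for counting error only. On the log2(FPKM + 1) scale, which narrows differences of such low values, the difference was 0.01 (exact two-sided permutation p = 0.943). With a pseudocount of 0.1 in place of 1 it was 0.17 (exact two-sided permutation p = 0.771). KRT78 had an FPKM of 0.326, 0.292, 0.626 and 0.204 across OGD-R 1 to 4, against 0.187, 0.208, 0.221 and 0.366 across Controls 1 to 4. OGD-R 3 and Control 4 were the highest of their groups, and the groups overlapped. The log2(FPKM + 1) difference of KRT78 was 0.12 (exact two-sided permutation p = 0.343). With a pseudocount of 0.1 it was 0.37 (exact two-sided permutation p = 0.343). By the same estimate, KRT78 rested on 26.9 to 87.6 fragments in a library. Neither gene reached a mean of 1 FPKM, so 3 of the 5 members entered the test over all genes.

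By mean level per length in OGD-R, the order was KRT10, KRT1, KRT77, KRT78 and KRT2. In OGD-R no 2 neighbours in this order overlapped. In Control, KRT77 at 0.163 to 0.942 FPKM overlapped KRT78 at 0.187 to 0.366 FPKM. KRT10 and KRT1 also overlapped there, since KRT1 was at 31.8 FPKM in Control 3 and KRT10 at 27.6 FPKM in Control 2, although KRT10 exceeded KRT1 within every library. Among 55 keratin genes in the files, KRT10 ranked 9 to 10 in OGD-R libraries and 8 to 14 in Control libraries. KRT1 ranked 11 to 12 in OGD-R and 18 in every Control. Together the 5 genes made up 2.94%, 3.75%, 3.55% and 2.90% of summed keratin FPKM in OGD-R 1 to 4, against 0.241%, 0.237%, 1.35% and 1.30% in Controls 1 to 4. All keratins together made up 4.08% to 4.36% of summed FPKM in OGD-R and 3.03% to 5.50% in Control, so the keratin total overlapped between the groups while the suprabasal share did not.

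The suprabasal pair was also set against the basal pair. KRT5, the basal type II keratin, was at 4973 ± 116 FPKM in OGD-R and 2504 ± 486 FPKM in Control, and KRT14, its partner, was at 5104 ± 322 FPKM in OGD-R and 3830 ± 243 FPKM in Control (SD, n = 4 each). Both rose, by 1.01 (adjusted p = 0.00187 by limma) and by 0.41 (adjusted p = 0.00911 by limma) on the log2 scale. The call of KRT14 was lost with no filter on low values (adjusted p = 0.194 by limma). The type II ratio, KRT1 to KRT5, was 0.0328, 0.0436, 0.0398 and 0.0295 across OGD-R 1 to 4, against 0.00209, 0.00166, 0.0143 and 0.0150 across Controls 1 to 4. The type I ratio, KRT10 to KRT14, was 0.0789, 0.101, 0.0993 and 0.0875 across OGD-R 1 to 4, against 0.00725, 0.00736, 0.0736 and 0.0728 across Controls 1 to 4. Neither ratio overlapped between the groups (log2 difference 2.78 and 1.98, exact two-sided permutation p = 0.0286 each). OGD-R 1 and Control 3 were close in the type I ratio, and without Controls 1 and 2 its log2 difference was 0.32 (exact permutation p = 0.133). Leaving out any 1 OGD-R library gave an exact permutation p of 0.171 for the type I ratio and 0.0857 for the type II ratio. The type II log2 difference was 1.30 with Controls 1 and 2 left out and 4.27 with Controls 3 and 4 left out, and the type I one with Controls 3 and 4 left out was 3.64. Of the 4 ratios tested, with KRT1 to KRT10 and KRT77 to KRT1, each had an adjusted p of 0.0286.

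Along chromosome 12 the members did not share their levels with all their neighbours. Among 14 keratin genes from KRT5 to KRT8, KRT1 stood between KRT2, below 0.2 FPKM in every library, and KRT77, between 0.163 and 2.85 FPKM. KRT4, a mucosal type II keratin of the same cluster, had an FPKM of 458, 412, 428 and 412 across OGD-R 1 to 4, against 6.68, 5.52, 88.1 and 75.5 across Controls 1 to 4. KRT3, a corneal keratin, was at 1.22 to 1.73 FPKM in OGD-R and 0.279 to 0.571 FPKM in Control, below the filter. KRT76 and KRT79 stayed below 0.71 FPKM and overlapped between the groups. Among the other 50 keratins, 20 were tested, of which 7 were higher and 2 lower in OGD-R, beside 10.2% and 9.69% of all genes, with a median log2 fold change of -0.14 against 0.02 over all genes tested. The higher ones were KRT4 (log2 fold change 4.15), KRT15 (2.98), KRT13 (2.57), KRT5 (1.01), KRT19 (0.69), KRT9 (0.66) and KRT14 (0.41). All 3 basal keratins, KRT5, KRT14 and KRT15, were among them, as were both mucosal keratins tested, KRT4 and KRT13. Without Controls 1 and 2 the log2 fold changes of KRT4 and KRT13 were 2.37 and 1.49, and without Controls 3 and 4 they were 5.92 and 3.66. With each Control left out in turn KRT4 ranged from 3.52 to 4.77. KRT9, of palms and soles, averaged 3.10 ± 0.347 FPKM in OGD-R and 1.64 ± 0.629 FPKM in Control (SD, n = 4 each), and its call was lost without any 1 OGD-R library, without Control 3 or Control 4, and with no filter. Of 5 wound keratins, 0 rose and KRT6A fell, by 0.26 on the log2 scale. These counts became 0 higher and 4 lower on leaving out Controls 1 and 2, beside 39.2% and 28.4% of all genes. Leaving out Controls 3 and 4 made them 1 higher and 2 lower, beside 22.8% and 32.4% of all genes. The KRT6A call was lost with upper-quartile scaling, with looser filters, without Control 1 or Control 3 and without any 1 OGD-R library, and KRT6A has near-identical copies in KRT6B and KRT6C, so its reads may be split. KRT17, another wound keratin, had an FPKM of 2084 to 2435 across OGD-R, against 2346, 2089, 9933 and 9796 across Controls 1 to 4, and did not pass with all libraries. With Controls 1 and 2 left out it was called lower (log2 fold change -2.14, adjusted p = 5.89e-08 by limma). KRT16, its relative, had an FPKM of 67.3 to 81.4 across OGD-R, against 46.0, 57.2, 304 and 254 across Controls 1 to 4, and did not pass with all libraries. It was called lower with Controls 1 and 2 left out (-1.89, adjusted p = 1.9e-07 by limma) and higher with Controls 3 and 4 left out (0.52, adjusted p = 0.00184 by limma). For KRT16 and KRT17 Controls 3 and 4 therefore lay above OGD-R, which was not so for KRT1 or KRT10. Of 5 simple keratins, KRT19 rose and KRT18 fell by 1.27 on the log2 scale, and KRT18 has many processed copies that may share its reads.

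**Figure D4:**
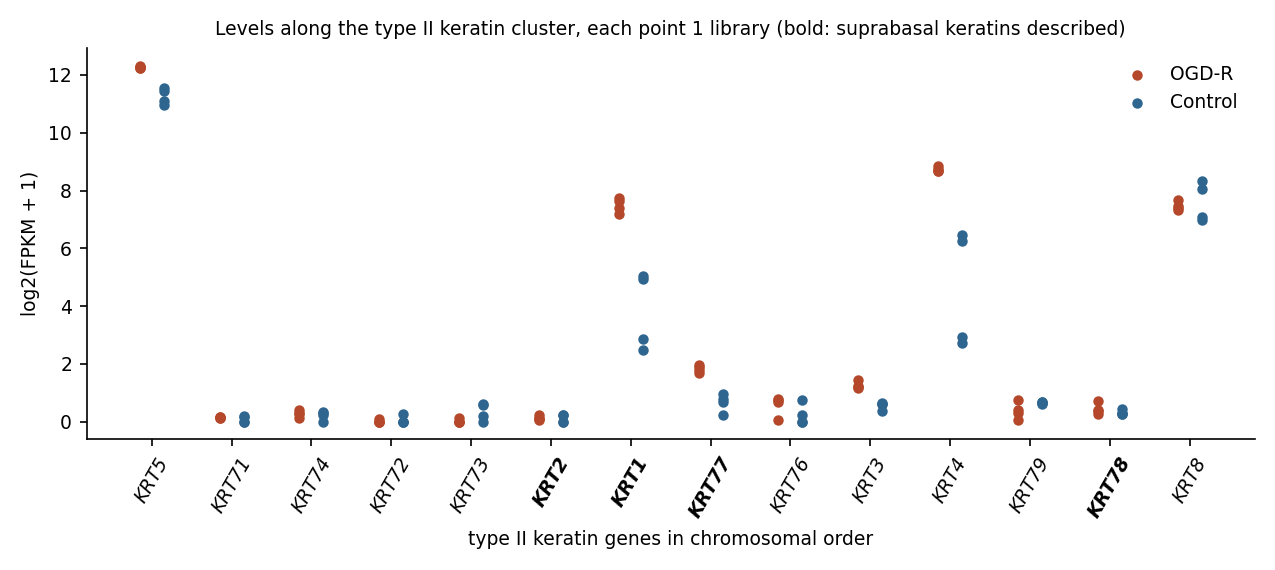
Levels as log2(FPKM + 1) of 14 type II keratin genes in their order along chromosome 12, with OGD-R points left of Control points and 1 point per library. KRT1 and KRT4 are higher in OGD-R and stand beside genes at low levels, and KRT2 and KRT78 lie near 0 in both groups.

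Genes were ranked by how closely their profile over the 8 libraries followed that of KRT1 or KRT10, as the root mean square difference of centred log2(FPKM + 1) values. KRT1 was followed most closely by ATP6V1B1, a proton pump subunit (0.38), KLK13, a kallikrein protease (0.49), DSG4, a desmosomal cadherin (0.50), KRT4 (0.53) and KRT13, the partner of KRT4 (0.58), among 11077 named genes. KRT10 itself differed from KRT1 by 0.72 and ranked 15th. KRT10 was followed most closely by DAPL1 (0.15), SCEL, which encodes sciellin of the cornified envelope (0.20), OLFM4 (0.27), CRABP2, a retinoic acid binding protein (0.28), and DSG1, a desmosomal cadherin of the upper epidermis (0.32). SCEL had an FPKM of 68.3, 74.8, 78.1 and 74.2 across OGD-R 1 to 4, against 4.67, 5.56, 41.8 and 39.8 across Controls 1 to 4, so its Controls split as those of KRT10 did. DSG4 had an FPKM of 19.4 to 23.3 across OGD-R, against 0.886, 0.632, 4.74 and 4.38 across Controls 1 to 4. These profiles share libraries and the split of the Controls, so the differences are descriptive.

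Desmosomal genes encode the junctions that anchor KRT1 and KRT10 filaments. Of 11 tested of 12, 4 rose and 1 fell, beside 10.2% and 9.69% of all genes, with a median log2 fold change of 0.57 against 0.02 over all genes. DSG4, described above, was not in this list and is not counted. With any 1 OGD-R library left out, 2 were called higher and 1 lower. DSG1 had an FPKM of 10.4, 13.4, 11.8 and 9.57 across OGD-R 1 to 4, against 0.0892, 0.0581, 4.44 and 4.19 across Controls 1 to 4 (log2 fold change 2.35, adjusted p = 0.0253 by limma). Its call was lost with a pseudocount of 0.1 (adjusted p = 0.0597 by limma) and without any 1 OGD-R library, and that of DSG3 without any 1 OGD-R library, without Control 1 or Control 2, and with no filter. DSC3, a desmocollin, averaged 126.5 ± 3.02 FPKM in OGD-R and 55.8 ± 5.75 FPKM in Control (SD, n = 4 each). PKP1, a plakophilin, averaged 277.5 ± 12.3 FPKM in OGD-R and 124 ± 24.6 FPKM in Control (SD, n = 4 each). Both rose by 1.17 on the log2 scale and DSG3, a desmoglein, by 1.16. PKP2, the member that fell, did so by 0.72. DSP, which encodes desmoplakin, the link from keratin to the desmosome, averaged 242 ± 5.84 FPKM in OGD-R and 179 ± 86.4 FPKM in Control (SD, n = 4 each) and did not pass. Without Controls 1 and 2, 5 desmosomal genes were called higher and 2 lower, beside 39.2% and 28.4% of all genes. Without Controls 3 and 4 these counts were 9 and 2, beside 22.8% and 32.4% of all genes.

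Among 26 genes of the spinous and granular layers, 17 were tested, of which 3 rose and 0 fell, beside 10.2% and 9.69% of all genes (median log2 fold change 0.64). They were TGM1, a transglutaminase (1.50), and the envelope plakins EVPL (0.93) and PPL (0.83). TGM1 had an FPKM of 29.7 to 31.4 across OGD-R, against 5.50, 5.14, 20.2 and 17.6 across Controls 1 to 4. The TGM1 call was lost without any 1 OGD-R library, without Control 1 or Control 2, and with no filter, and that of PPL without OGD-R 1, OGD-R 2 or OGD-R 3. KRTDAP, a secreted differentiation protein, had an FPKM of 6.002, 11.5, 10.2 and 6.71 across OGD-R 1 to 4, against 0.244, 0, 6.47 and 4.52 across Controls 1 to 4, and did not pass (adjusted p = 0.0917 by limma). The count was 1 or 2 higher with any 1 OGD-R library left out. For some genes of this list OGD-R lay between the Control pairs. IVL had an FPKM of 136 to 149 across OGD-R, against 19.3, 17.4, 400 and 466 across Controls 1 to 4. SPRR1A had an FPKM of 118.5 to 152.9 across OGD-R, against 9.84, 5.83, 456 and 596.5 across Controls 1 to 4. Neither passed with all libraries. Counts in this list turned on the Controls kept. With Controls 1 and 2 left out, 6 of 17 genes were called higher and 8 lower, beside 39.2% and 28.4% of all genes, so the higher count was near the share of all genes. With Controls 3 and 4 left out, 13 were called higher and 0 lower, beside 22.8% and 32.4% of all genes.

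Of 27 regulators of epidermal differentiation, 21 were tested, of which 7 rose and 0 fell, beside 10.2% and 9.69% of all genes (median log2 fold change 0.23). DLX3, a homeobox factor, was at 11.8 ± 0.961 FPKM in OGD-R and 2.71 ± 0.604 FPKM in Control (SD, n = 4 each, log2 fold change 1.80, adjusted p = 0.000104 by limma). NOTCH3, a receptor of the pathway that drives spinous differentiation, had an FPKM of 6.33, 5.52, 4.95 and 4.33 across OGD-R 1 to 4, against 0.813, 0.745, 1.98 and 2.11 across Controls 1 to 4 (log2 fold change 1.42). GRHL3, a transcription factor of epidermal differentiation, averaged 16.4 ± 1.65 FPKM in OGD-R and 5.66 ± 0.300 FPKM in Control (SD, n = 4 each) and rose by 1.38 on the log2 scale. CEBPA, JAG2 and NOTCH1 rose by 1.07, 0.89 and 0.79. With Controls 1 and 2 left out, 8 of 21 regulators were called higher and 7 lower, near the 39.2% and 28.4% of all genes. With Controls 3 and 4 left out these counts were 15 and 2, beside 22.8% and 32.4% of all genes.

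**Figure D5:**
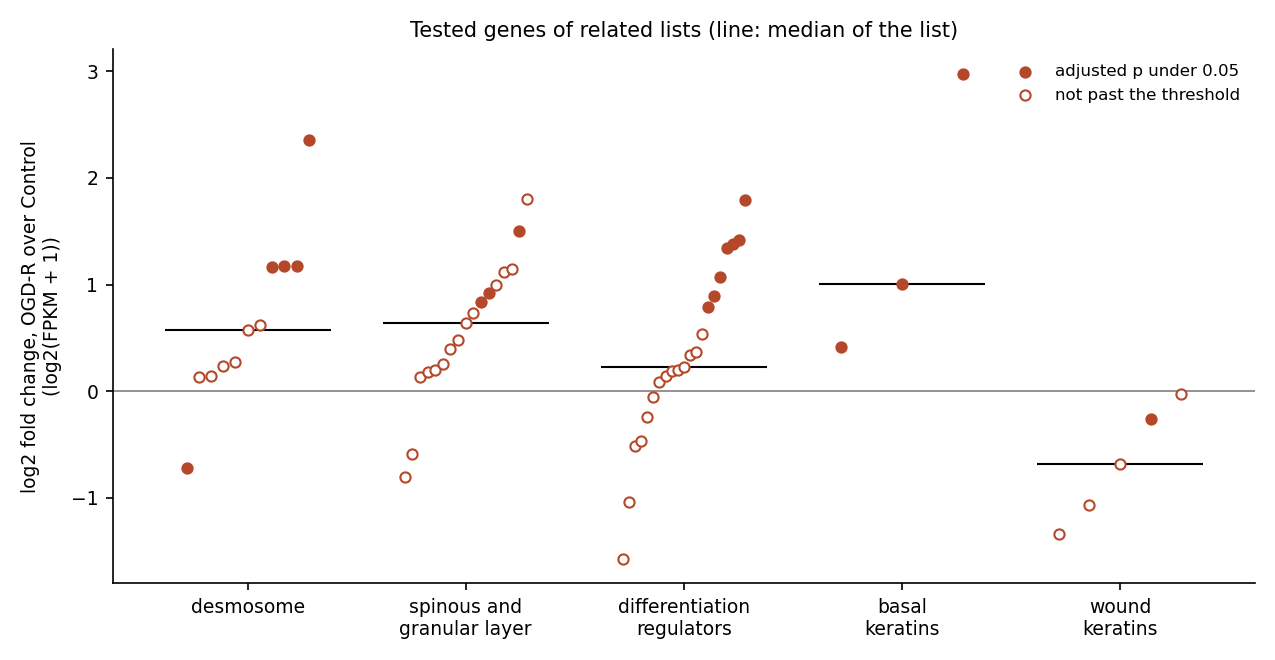
Log2 fold change of OGD-R over Control on the log2(FPKM + 1) scale for every tested gene of 5 lists, filled where the limma adjusted p was under 0.05, with a line at the median of each list. The 3 basal keratins are all filled and above 0, and 4 desmosomal, 3 spinous or granular and 7 regulator genes are filled above 0, with 1 desmosomal and 1 wound keratin gene filled below it.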

How the data were processed

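RNA sequencing libraries of HaCaT cells, 4 OGD-R and 4 Control, were grouped by title. Kits of the NEBNext and SMARTer ranges are named per the labels' protocols, and whether either keeps strand is not stated. Which aligner, counter, build and annotation were used was not given in the sources used here. For each library the authors deposited a table of 24252 genes without a written unit. Those deposited values are taken to be FPKM. Of low values of 940 single-exon genes, 18.3% to 34.7% lay within 0.5% of a whole step of a constant divided by length. The share expected by chance was not estimated. Such spacing cannot tell FPKM from another measure scaled to length. Depths and fragment numbers rest on the FPKM reading. They also rest on a step searched only within a fixed range, which bounds the depths in advance. The value column of Control 3 is headed C3.

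Log2(FPKM + 1) was tested with limma (version 3.58.1, R 4.3.3, intensity trend) over the 11740 genes averaging 1 FPKM or more, adjusted by Benjamini-Hochberg at 0.05. The fit was run on simulated data, with independent noise of the OGD-R spread in all libraries. Those data held neither the wider spread of the Controls nor their split, so the check does not cover these. Genes below the filter and ratios were tested by exact two-sided permutation over libraries. Genes named are the members, the 5 nearest in profile to KRT1 and to KRT10, and per list up to 4 of largest absolute log2 fold change, called ones first. PKP2, DSP, IVL, SPRR1A, CEBPA, JAG2, NOTCH1 and further keratins were named after their values were seen. Not every gene the rule picks is reported here. Members and lists were chosen with earlier results of these data known. Alternatives covered pseudocounts, filters, scaling, trend, a replicate block and each library left out. Leaving out Control pairs was chosen after seeing the data. Between any 2 libraries at most 1 value above 0 was identical. Python 3.11.15 and matplotlib 3.10.9 were used for tests of single values and for plots.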

Additional observations from a re-analysis of the deposited data

Results flagged for a closer look

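The KRT77 to KRT1 ratio of Control 2 lay far from the other Controls. It was 0.127 in Control 2, against 0.0257, 0.0297 and 0.0242 in Controls 1, 3 and 4, and the gap to the nearest Control made up 0.947 of the range. Control 2 had the lowest KRT1 value of all libraries, and its KRT77 value of 0.592 FPKM lay between those of the other Controls. Of 18 sets of 4 values examined, chance would be likely to mark about 1 in 20.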

How the results depend on the processing

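KRT1 and KRT77 kept their direction and their call under all alternatives run, with log2 fold changes of 2.50 to 4.81 and 0.96 to 2.08. KRT10 kept its direction, and its range with each library left out was 1.82 to 2.93 (2.93 without Control 3 and 2.88 without Control 4, both past the threshold). Leaving out Controls 1 and 2 made it 0.77, and leaving out Controls 3 and 4 made it 3.97. KRT2 had a log2(FPKM + 1) difference of 0.0094 with all libraries and of -0.031 to 0.051 with each library left out. It changed sign at -0.031 (without Control 2 or Control 3) and at -0.024 (without OGD-R 4). The KRT1 to KRT10 log2 difference ranged from 1.27 to 1.58 with each library left out. Leaving out Controls 1 and 2 made it 1.77 and leaving out Controls 3 and 4 made it 1.03, where 4 OGD-R libraries against 2 Controls cannot pass. With a replicate block it was 1.40 (exact sign-flip p = 0.125, the smallest that 4 pairs allow).

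Called genes numbered 1202 higher and 1138 lower. With a replicate block they were 625 and 507, without Controls 1 and 2 they were 4603 and 3337, and without Controls 3 and 4 they were 2673 and 3807. With each library left out they were 711 to 1426 higher and 561 to 1312 lower, the fewest without an OGD-R library. Deviations of same-numbered libraries correlated at 0.045 to 0.065. OGD-R 1 to 4 were best matched by Controls 2, 1, 4 and 4, so 1 of 4 numbers matched itself best. Each best match lay in the Control pair, 1 and 2 or 3 and 4, that holds the same number. Since the Controls differ mainly by pair, this check cannot tell whether same-numbered libraries belong together. With the replicate block the calls of DSG1, DSG3, TGM1, PPL, KRT9 and KRT6A were lost. Without Controls 3 and 4 the log2 fold changes of KRT17, KRT16 and KRT80 turned to 0.012, 0.52 and 0.057. Without Controls 1 and 2 those of KRT8 and KRT23 turned to 0.44 and -2.51. With each library left out these 2 ranged from -0.35 to 0.099 and from -0.54 to 1.50, changing sign without Control 1 (0.099 and -0.485) and without Control 2 (0.0068 and -0.539). The causes were not tested. Low counts limit KRT2, which rested on at most 22.6 fragments by the estimated depths.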
